A study of Homo sapiens with 18 samples.

Results

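The comparison described here is JQ1 against vehicle in the leukaemia line AML2, which the headers of the count tables call OCI-AML2. Its members were chosen by their labels: 3 libraries of AML2 with JQ1 and 3 of AML2 with vehicle (DMSO), 6 of the 18 libraries of the series. The others are AML2 with OTX015, and the line AML3 (OCI-AML3) under the same 3 treatments. Each of the 6 groups holds 3 libraries. Transcription starts were counted by CAGE, cap analysis of gene expression. It reads a short tag from the capped 5′ end of each RNA, in total RNA. The gene, promoter and enhancer tables give whole numbers of tags. As background, OCI-AML2 and OCI-AML3 are lines from acute myeloid leukaemias, and OCI-AML3 but not OCI-AML2 carries the NPM1 mutation that moves its protein to the cytoplasm. The labels give neither the genotype nor the dose or length of treatment, and each line stands for 1 patient's leukaemia only. Nothing in the labels says that the numbered libraries came from separate cultures, so the p-values measure the spread between these libraries, which may be technical. In a cell population, fewer cells of a type and less RNA per cell cannot be told apart.

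BET proteins carry paired bromodomains that bind acetylated lysines on histones and recruit the elongation kinase P-TEFb to promoters and enhancers, where paused RNA polymerase II is released into the gene body. JQ1 fills the acetyl-lysine pocket of these bromodomains and displaces the proteins from chromatin. In myeloid leukaemia cells the best known consequence is loss of MYC transcription. The question the comparison addresses is which starts of transcription change when BET proteins are displaced in a line with normal NPM1.

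The gene table held 1554110, 2163106 and 957036 tags in vehicle libraries 1, 2 and 3 and 995343, 1290954 and 570101 tags in the JQ1 libraries, so that library 3 was the shallowest of each group. On the first principal component, which held 78.2% of the variance, the 3 JQ1 libraries lay apart from the 3 vehicle libraries, and the second (10.5%) set library 3 of each group apart from the other 2. Promoters of the mitochondrial genome took 0.318% to 0.555% of tags with vehicle and 0.703% to 1.25% with JQ1, and ribosomal protein genes 20.6% to 26.4% and 17.5% to 21.0%. The part of these shifts in the results was not tested. Markers of the myeloid lineage fitted the label: 9 of 10 were in the gene table, of which ANPEP alone had 0 tags in these 6 libraries, and their sum was 2124 to 2806 CPM with vehicle and 1196 to 1306 CPM with JQ1. AZU1 weighs heavily in it (1360, 1761 and 608 against 226, 211 and 215 CPM), as does LYZ in vehicle library 3 (615 CPM). Most of the markers had a lower mean with JQ1. CD33 was lower without overlap (65.7, 73.2 and 70.3 against 52.5, 56.4 and 45.9 CPM). CSF3R fell (53.1, 64.0 and 44.7 against 19.4, 22.04 and 22.9 CPM). The groups overlap for SPI1 (287, 395 and 382 against 292, 296 and 233 CPM). They also overlap for ELANE (6.74, 14.1 and 0 against 3.42, 4.41 and 0 CPM). Not every marker was lower: CD68 rose (42.1, 64.0 and 49.8 against 167, 101 and 162 CPM). CEBPA was at 245, 361 and 441 against 386, 583 and 483 CPM. Of the markers of other blood and tissue cells, T cell, erythroid and epithelial markers had no entry in the table, COL1A2 of fibroblasts had 0 tags, and 2 B cell markers summed to at most 2.71 CPM. The 2 listed megakaryocyte markers, ITGA2B and GP9, summed to 8.94 to 21.9 CPM with vehicle and 2.28 to 3.53 CPM with JQ1. CPM is the usual depth-scaled tag count, here with library sizes scaled by TMM.

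Of 10031 genes tested, 3469 (34.6%) passed the test (edgeR quasi-likelihood, Benjamini-Hochberg adjusted p under 0.05): 1727 (17.2%) rose and 1742 (17.4%) fell, of which 1253 and 1103 changed at least 2-fold. TMM scaling centres the changes on a median of 0, so the balance of rises and falls is largely set by it. The libraries of the 2 groups did not overlap for 4840 genes (48.3%). "Rose" and "fell" below refer to genes that passed this test, and each change is given as log2 of the JQ1 to vehicle ratio with its standard error (SE). Each of the 31 gene lists is given by its counts and its median, beside a median of 0 over all genes tested. The spread of every list is drawn in the plot of list members.

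**Figure D1:**
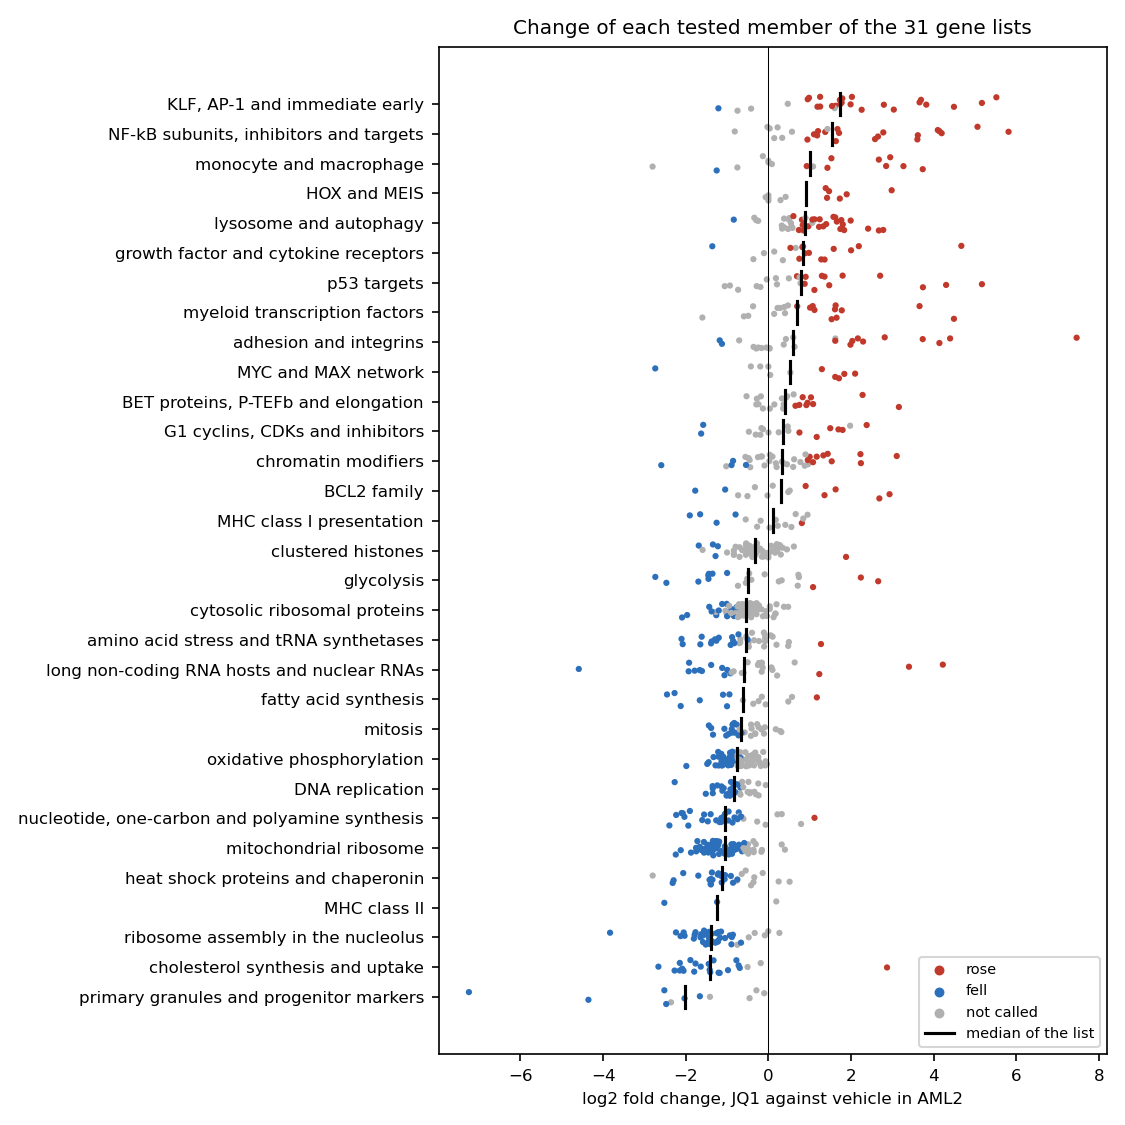
Log2 fold change of JQ1 against vehicle in AML2 (x axis) for each tested member of the 31 gene lists (1 point per gene, rows ordered by the list's median, black bars the medians). The list of KLF, AP-1 and immediate early genes has the highest median (1.74) and the list of primary granule and progenitor markers the lowest (−2.03). That lowest median has the same rounded value as the change of LYZ, a fall that rested on 1 library. Red points rose, blue points fell and grey points did not pass the test.

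MYC, the transcription factor that drives growth and ribosome production (GRCh38 chromosome 8, 127735434 to 127741434), had 406, 447 and 464 CPM in the vehicle libraries and 52.5, 62.6 and 84.7 CPM in the JQ1 libraries. The groups were far apart, and the change was −2.74 (SE 0.24, adjusted p = 4.84e-09). Its partner MAX, without which it does not bind DNA, did not pass the test, at 131, 151 and 158 CPM with vehicle and 168, 142 and 143 CPM with JQ1, groups that overlap (log2 0.04, SE 0.24, adjusted p = 0.919). Of 11 tested members of the MYC and MAX network, 5 rose and 1, MYC itself, fell (median 0.53). Those that rose include the genes of the MXD proteins, which compete with MYC for MAX and repress its sites. MXD1 rose from 8.43, 9.76 and 10.2 to 42.2, 30.0 and 54.7 CPM (log2 2.10, SE 0.34), MXD4 by 1.71 (SE 0.24) and MXD3 by 1.62 (SE 0.30). MLXIP, a glucose-sensing relative that pairs with MLX, rose by 1.29 (SE 0.35).

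Among the BET proteins, P-TEFb and their elongation partners, 9 of 24 tested genes rose and 0 fell (median 0.40), and without vehicle library 1 5 rose and 1 fell. HEXIM1, the protein that holds P-TEFb inactive in the 7SK particle and whose rise is widely used as a readout of BET inhibition, had 15.2, 10.9 and 26.8 CPM with vehicle and 110, 114 and 228 CPM with JQ1. Every JQ1 library lay above every vehicle library, library 3 being the highest of its group (log2 3.16, SE 0.51, adjusted p = 2.93e-05). ELL2, a subunit of the super elongation complex, rose from 1.69, 5.42 and 7.67 to 28.5, 19.4 and 22.9 CPM (log2 2.28, SE 0.39), and AFF4, its scaffold, by 1.08 (SE 0.28). BRD3, one of the drug's own targets, rose from 48.0, 48.8 and 39.6 to 84.5, 70.5 and 77.6 CPM (log2 0.75, SE 0.21, adjusted p = 0.00762). BRD2 was close to the threshold, at 23.6, 24.95 and 26.8 CPM against 41.1, 31.7 and 67.0 CPM (log2 0.83, SE 0.32, adjusted p = 0.0457). Its call was lost with RLE scaling (adjusted p = 0.0502) and without vehicle library 1, 2 or 3 or JQ1 library 1 or 3 (0.0682 to 0.229), and with libraries 1 and 2 alone (0.0565). SERPINI1, a protease inhibitor gene also used as a readout of BET inhibition, rose from 4.21, 1.09 and 0 to 19.4, 20.3 and 22.9 CPM (log2 3.40, SE 0.48).

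Most genes of ribosome assembly fell. Of 43 tested genes of ribosome assembly in the nucleolus, 37 fell and 0 rose (median −1.38). NPM3, a nucleoplasmin family relative of NPM1 that binds it in the nucleolus, had 405, 370 and 350 CPM with vehicle and 25.1, 24.7 and 30.0 CPM with JQ1 (log2 −3.83, SE 0.29, adjusted p = 6.57e-10). The 3 JQ1 libraries were nearly equal, and all lay far below the lowest vehicle library. NOP16 fell by 2.03 (SE 0.21), GAR1, a protein of the pseudouridylation particles, by 2.24 (SE 0.29), and MRTO4, which holds the place of a stalk protein on the immature large subunit, by 2.05 (SE 0.25). EBNA1BP2, a large subunit assembly factor, fell by 1.80 (SE 0.24). NPM1, the abundant nucleolar chaperone, fell from 3167, 2374 and 3160 to 1154, 1302 and 1120 CPM (log2 −1.28, SE 0.36, adjusted p = 0.00751), less than NPM3 in size, although the difference between the 2 genes was not tested.

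The genes of the mitochondrial ribosome, which translates the few proteins of the mitochondrial genome, fell too: 58 of 74 fell and 0 rose (median −1.06). MRPL11 went from 222, 175 and 204 to 39.95, 50.2 and 33.5 CPM (log2 −2.24, SE 0.26), MRPL23 fell by 2.12 (SE 0.28) and MRPL3 by 1.87 (SE 0.22). On the small subunit, MRPS5 fell by 1.75 (SE 0.24) and MRPS15 by 1.72 (SE 0.20). Of 83 tested genes of cytosolic ribosomal proteins 12 fell and 0 rose (median −0.53), which is no more than the 17.4% of all genes that fell. The count was 37 falls and 2 rises with libraries 1 and 2 alone, 24 falls with only the compared groups in the fit and 7 falls without vehicle library 1, JQ1 library 2 or JQ1 library 3. RPL27 fell from 552, 677 and 744 to 169, 175 and 116 CPM (log2 −2.09, SE 0.38) and RPL21 by 1.97 (SE 0.23). Reads of ribosomal protein genes can be shared with their many pseudogenes, so their values are uncertain.

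Many genes of nucleotide and lipid synthesis fell alongside. Of 33 tested genes of nucleotide, one-carbon and polyamine synthesis, 25 fell and 1 rose (median −1.05). DHODH, the pyrimidine enzyme of the inner mitochondrial membrane, had 34.6, 29.8 and 37.1 CPM with vehicle and 6.85, 5.29 and 7.06 CPM with JQ1 (log2 −2.40, SE 0.32). The purine synthesis genes ATIC and PAICS fell by 2.07 (SE 0.24) and 1.94 (SE 0.28), the serine synthesis gene PSAT1 by 2.23 (SE 0.39) and the folate enzyme gene MTHFD1 by 1.60 (SE 0.26). The exception was RRM2, the small subunit of ribonucleotide reductase, which rose from 186, 155 and 250 to 506, 344 and 427 CPM (log2 1.12, SE 0.25, adjusted p = 0.00103). Of 23 genes of cholesterol synthesis and uptake, 20 fell and 1 rose (median −1.42). HMGCS1, which starts the mevalonate pathway, fell from 132, 86.8 and 107 to 18.3, 12.3 and 22.9 CPM (log2 −2.66, SE 0.30). DHCR7, the last step, fell by 2.27 (SE 0.29), CYP51A1 by 2.15 (SE 0.25), FDPS, which makes farnesyl diphosphate, by 2.09 (SE 0.28) and SQLE by 2.05 (SE 0.26). TM7SF2, a sterol reductase gene, was the riser, with 1 tag over the vehicle libraries and 7 over the JQ1 libraries, a ratio of 10.4 (95% counting interval 1.33 to 467). Its call was lost without vehicle library 1, without JQ1 library 1, with libraries 1 and 2 alone and with DESeq2 (adjusted p = 0.0514 to 0.0741).

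For fatty acid synthesis, 7 of 15 tested genes fell and 1 rose (median −0.62). SCD, the stearoyl desaturase, fell from 115, 176 and 234 to 35.4, 31.7 and 26.5 CPM (log2 −2.45, SE 0.34), FADS2 by 2.27 (SE 0.38), the synthase gene FASN by 2.12 (SE 0.29) and the elongase gene ELOVL6 by 1.66 (SE 0.25). ACSL1, which charges fatty acids with coenzyme A, rose by 1.17 (SE 0.28). Of 77 genes of oxidative phosphorylation, 39 fell and 0 rose (median −0.76), a count of 17 to 22 without vehicle library 1, JQ1 library 2 or JQ1 library 3. ATP5MC1, which encodes the ring subunit of ATP synthase, fell from 298, 260 and 231 to 69.6, 74.0 and 52.9 CPM (log2 −1.99, SE 0.26). The complex I genes NDUFA9 and NDUFB8 fell by 1.48 (SE 0.23) and 1.45 (SE 0.26), CYC1 of complex III by 1.33 (SE 0.28) and SDHB of complex II by 1.21 (SE 0.26). In the same libraries the tags from the mitochondrial genome's own promoters took the larger share given above. Glycolysis was split, with 8 of 22 tested genes falling and 3 rising (median −0.49). ALDOC, an aldolase gene, fell by 2.74 (SE 0.45), PFKFB4 by 2.47 (SE 0.45), PFKP by 1.69 (SE 0.26) and GPI by 1.45 (SE 0.25), while HK3, a hexokinase gene of myeloid cells, rose from 12.6, 9.76 and 11.5 to 61.6, 67.0 and 86.4 CPM (log2 2.66, SE 0.28).

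Of 29 heat shock and chaperonin genes, 19 fell and 0 rose (median −1.13). HSPE1 and HSPD1, the co-chaperonin and chaperonin of the mitochondrial matrix, fell by 2.32 (SE 0.36) and 2.06 (SE 0.23), the steroid receptor co-chaperone gene FKBP4 by 2.29 (SE 0.24), HSPH1 by 1.42 (SE 0.24) and TCP1, a subunit of the cytosolic chaperonin, by 1.40 (SE 0.21). HSPE1 had 1241, 848 and 915 CPM with vehicle and 209, 218 and 175 CPM with JQ1, with no overlap. In the list of amino acid stress genes and tRNA synthetases, 15 of 35 fell and 1 rose (median −0.54). The synthetase genes VARS, YARS, IARS, KARS and EPRS fell by 2.10 (SE 0.27), 1.65 (SE 0.24), 1.39 (SE 0.23), 1.37 (SE 0.23) and 1.26 (SE 0.20). The riser was DDIT3, a transcription factor of the stress response, at 36.2, 17.9 and 28.1 CPM against 35.4, 39.7 and 132 CPM, groups that overlap (log2 1.27, SE 0.48, adjusted p = 0.0423). DDIT3 lost its call without vehicle library 2 or 3 or JQ1 library 3, with libraries 1 and 2 alone and with DESeq2 (adjusted p = 0.0745 to 0.435).

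Genes that copy and divide the genome also fell. Of 34 tested DNA replication genes 21 fell and 0 rose (median −0.84), and of 32 mitosis genes 16 fell and 0 rose (median −0.67). POLD2, a subunit of the replicative polymerase delta, went from 152, 152 and 123 to 50.2, 68.8 and 45.9 CPM (log2 −1.35, SE 0.21). UHRF1, which keeps methylation in step with replication, fell by 1.14 (SE 0.21), the clamp loader gene RFC3 by 1.11 (SE 0.25), ORC6 by 1.08 (SE 0.25) and the helicase gene MCM7 by 0.91 (SE 0.21). Among mitosis genes, PLK1, the kinase that drives spindle assembly, fell from 112, 132 and 146 to 51.4, 55.5 and 38.8 CPM (log2 −1.39, SE 0.25). The spindle checkpoint gene MAD2L1 fell by 1.34 (SE 0.30), CCNB1 by 1.02 (SE 0.24), FOXM1 by 0.96 (SE 0.25) and CCNA2 by 0.90 (SE 0.23). The mitosis count was 10 without JQ1 library 3.

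Regulators of the G1 phase were mixed, with 6 of 18 rising and 2 falling (median 0.36). CDKN2D, an inhibitor of CDK4 and CDK6, rose from 10.1, 14.1 and 15.3 to 70.8, 70.5 and 63.5 CPM (log2 2.38, SE 0.26), and the inhibitor gene CDKN1B by 1.70 (SE 0.26). The cyclin genes CCND3 and CCNE2 rose by 1.496 (SE 0.26) and 1.17 (SE 0.26). CDK4 fell from 161, 138 and 141 to 44.5, 57.3 and 37.0 CPM (log2 −1.63, SE 0.22), while CDK6 did not pass the test (log2 0.48, SE 0.47, adjusted p = 0.452). Of 60 tested clustered histone genes 4 fell and 1 rose (median −0.32). HIST1H2BE fell by 1.69 (SE 0.38), HIST1H2AD by 1.34 (SE 0.28), HIST1H2BG by 1.28 (SE 0.33) and HIST1H3F by 1.22 (SE 0.34), while the pseudogene HIST1H2APS5 rose by 1.88 (SE 0.41). Tags of near-identical histone copies can be split between them. With libraries 1 and 2 alone 9 histone genes rose and 8 fell, and with only the AML2 vehicle and JQ1 groups in the fit 2 rose and 11 fell.

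On the rising side, the NF-kB list and the list of early response genes had the highest medians. Of 26 tested NF-kB subunits, inhibitors and targets 18 rose and 0 fell (median 1.53). NFKBIA, which encodes the inhibitor that keeps NF-kB in the cytoplasm, had 11.8, 22.2 and 26.8 CPM with vehicle and 357, 337 and 411 CPM with JQ1 (log2 4.19, SE 0.30, adjusted p = 1.88e-10). BCL3, a nuclear relative of that inhibitor, rose from 2.53, 4.34 and 3.83 to 129, 131 and 116 CPM (log2 5.06, SE 0.44). Both genes were within a narrow range in the JQ1 libraries. The early response gene IER3 rose from 6.74, 5.42 and 10.2 to 290, 245 and 676 CPM (log2 5.81, SE 0.47). TNF, the cytokine that is both target and trigger of the pathway, rose from 44.7, 51.0 and 98.4 to 727, 703 and 909 CPM (log2 3.62, SE 0.42), and the adhesion molecule gene ICAM1 by 4.14 (SE 0.49). LTB, a related cytokine gene, was among the largest rises of all genes, from 19.4, 16.3 and 30.7 to 494, 523 and 510 CPM (log2 4.58, SE 0.36).

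Among KLF, AP-1 and immediate early genes 22 of 27 rose and 1 fell (median 1.74). KLF2, a zinc finger factor of quiescent leukocytes, was nearly silent with vehicle, at 1.69, 1.09 and 2.56 CPM, and had 68.5, 93.4 and 70.6 CPM with JQ1 (log2 5.52, SE 0.47, adjusted p = 3.38e-09). BTG2, an antiproliferative gene that is also a p53 target, rose from 5.90, 10.9 and 8.94 to 261, 212 and 496 CPM (log2 5.17, SE 0.53). KLF4 had 0.843, 1.09 and 3.83 CPM against 12.6, 17.6 and 102 CPM (log2 4.49, SE 1.02), and JQ1 library 3 stood well above the other 2. ZFP36 and ZFP36L1, whose proteins speed the decay of AU-rich mRNAs, rose by 3.03 (SE 0.32) and 2.79 (SE 0.36), and KLF13 by 2.26 (SE 0.23). KLF16 was the member that fell (log2 −1.21, SE 0.31). The values of 16 named genes are drawn in the plot of gene levels.

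**Figure D2:**
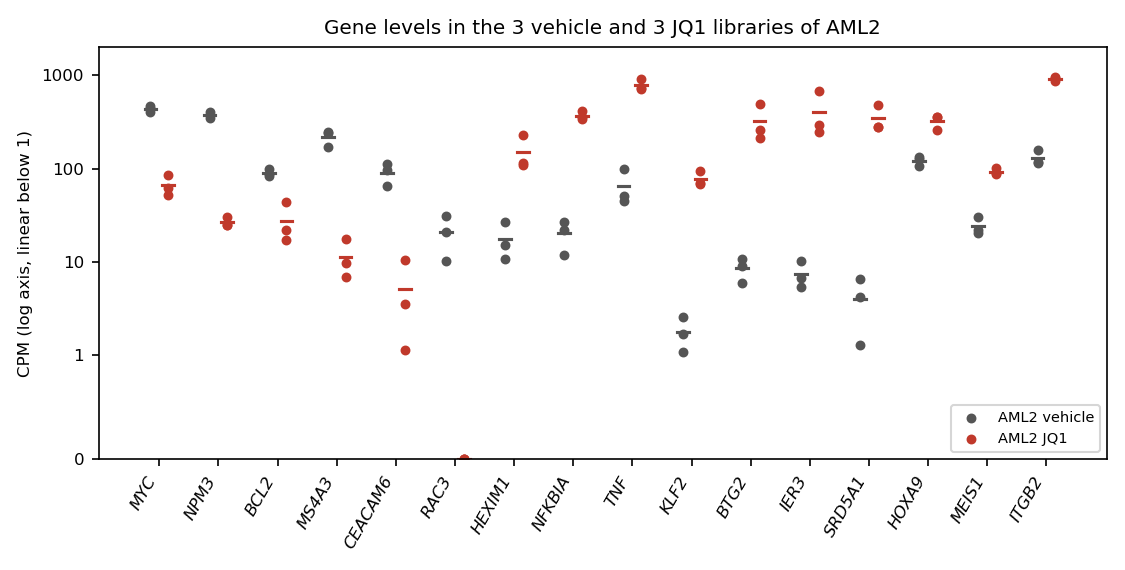
CPM (y axis, log scale, linear below 1) of 16 named genes in each vehicle library (grey) and each JQ1 library (red) of AML2, with horizontal bars for the mean of 3. For each of the 16 genes the JQ1 libraries lie on 1 side of the vehicle libraries; RAC3 is at 0 in all 3 JQ1 libraries, and MYC falls from 406 to 464 CPM to 52.5 to 84.7 CPM.

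The sequences before the starts of HEXIM1 and of 3 of these genes are shown as examples of promoters of genes that rose. They are the 150 bases before the RefSeq start on GRCh38.p14, 5′ to 3′ on the gene's strand, with capitals for the motifs searched on both strands: the CCAAT box by its own letters, TATAAA for the TATA box, GGGCGG for the GC box, CCGGAAG for the ETS site, CACGTG for the E-box, and TGACTCA for the AP-1 site.
HEXIM1 (chr17:45148325-45148474, plus strand): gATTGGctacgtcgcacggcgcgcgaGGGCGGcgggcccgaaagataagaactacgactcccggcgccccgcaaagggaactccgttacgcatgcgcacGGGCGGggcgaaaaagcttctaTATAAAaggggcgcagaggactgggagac
NFKBIA (chr14:35404750-35404899, minus strand): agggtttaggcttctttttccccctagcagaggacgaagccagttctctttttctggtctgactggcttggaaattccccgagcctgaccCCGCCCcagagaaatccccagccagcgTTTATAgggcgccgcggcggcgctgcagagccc
TNF (chr6:31575415-31575564, plus strand): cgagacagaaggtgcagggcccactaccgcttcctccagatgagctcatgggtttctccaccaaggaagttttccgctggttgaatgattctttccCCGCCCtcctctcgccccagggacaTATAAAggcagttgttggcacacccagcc
KLF2 (chr19:16324676-16324825, plus strand): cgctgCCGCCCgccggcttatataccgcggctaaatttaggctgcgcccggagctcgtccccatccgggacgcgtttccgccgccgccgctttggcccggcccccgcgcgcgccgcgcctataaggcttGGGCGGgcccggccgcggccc
HEXIM1, NFKBIA and TNF each hold a TATA box, at bases 29 to 24, 33 to 28 (on the opposite strand) and 29 to 24 before the start. Each of the 4 sequences holds at least 1 GC box, at bases 21 to 16 before the start in KLF2. Of all 27305 RefSeq promoters, counted over 300 bases from 250 before to 50 after the start, 12.02% held the TATA box, 35.7% the CCAAT box and 44.5% the GC box. A match describes letters and is no binding site.

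Motif shares also differed between lists. Of 36 nucleolar genes with a RefSeq promoter 15 (41.7%) held the E-box, the site that MYC and MAX share with other factors, against 10.7% of the 8054 tested genes with a RefSeq promoter and 7.41% of all RefSeq promoters. The ETS site was in 40.9% of 66 mitochondrial ribosome promoters against 22.4% of the tested genes. The CCAAT box was in 77.8% of 27 mitosis promoters and 85.7% of 49 histone promoters against 38.03%, though few histone genes were called (4 fell and 1 rose, of 60). These pairs of list and motif were picked after all 31 lists and 7 motifs (the 6 above and 1 not used here) had been counted, and were not tested. Over all falling genes the E-box was in 13.4% of promoters. Among the risers it was in 10.4% of the 1349 with a RefSeq promoter, who are under 80% of all risers, so their share is less certain. The 5 promoters below, of genes named above as fallen, are examples in the same layout as before, and none of them holds the E-box in this window.
NPM3 (chr10:101783447-101783596, minus strand): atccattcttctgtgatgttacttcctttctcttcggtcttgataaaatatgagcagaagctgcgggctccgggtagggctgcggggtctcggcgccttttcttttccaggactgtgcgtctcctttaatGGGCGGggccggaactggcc
MRTO4 (chr1:19251655-19251804, plus strand): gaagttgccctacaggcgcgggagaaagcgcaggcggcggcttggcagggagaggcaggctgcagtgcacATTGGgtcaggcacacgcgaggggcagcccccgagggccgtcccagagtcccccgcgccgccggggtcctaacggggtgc
FDPS (chr1:155308716-155308865, plus strand): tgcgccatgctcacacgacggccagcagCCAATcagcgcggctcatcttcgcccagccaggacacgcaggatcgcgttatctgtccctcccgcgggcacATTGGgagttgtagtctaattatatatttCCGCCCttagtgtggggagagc
MRPL3 (chr3:131502972-131503121, minus strand): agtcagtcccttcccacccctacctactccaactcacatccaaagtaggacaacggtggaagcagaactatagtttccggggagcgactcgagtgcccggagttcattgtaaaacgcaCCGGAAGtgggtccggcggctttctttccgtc
PLK1 (chr16:23678739-23678888, plus strand): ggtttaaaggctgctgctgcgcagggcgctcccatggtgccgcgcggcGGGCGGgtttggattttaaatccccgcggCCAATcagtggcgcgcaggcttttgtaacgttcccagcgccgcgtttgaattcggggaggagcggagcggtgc
MRPL3 holds its ETS site at bases 32 to 26 before the start. FDPS holds 2 CCAAT boxes, 1 on each strand, at bases 122 to 118 and 51 to 47, and PLK1 holds 1 at bases 73 to 69. In NPM3 the only match is a GC box at bases 20 to 15, and in MRTO4 a CCAAT box at bases 80 to 76.

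Of 23 tested p53 targets 12 rose and 0 fell (median 0.78). The redox gene TP53I3 went from 2.53, 1.09 and 2.56 to 35.4, 33.5 and 51.2 CPM (log2 4.30, SE 0.43), and TP53INP1, a cofactor of cell death and autophagy, rose by 3.74 (SE 0.61). PLK3 rose by 2.70 (SE 0.65) and RRM2B, the ribonucleotide reductase subunit that p53 induces, by 1.29 (SE 0.28). Without vehicle library 2, 5 of the list rose and 1 fell, and without JQ1 library 3, 6 rose and 3 fell. With the replicate block 13 rose and 3 fell, and with libraries 1 and 2 alone 12 rose and 4 fell. In the BCL2 family 5 of 14 rose and 2 fell (median 0.29), with 3 rising without vehicle library 2 or JQ1 library 1 or 3. BCL2, the survival protein of many leukaemias, fell from 83.4, 86.8 and 98.4 to 17.1, 22.04 and 44.1 CPM (log2 −1.77, SE 0.27, adjusted p = 1.34e-05). BMF, which sets off cell death by binding BCL2 proteins, rose from 5.06, 7.59 and 2.56 to 49.1, 43.2 and 38.8 CPM (log2 2.93, SE 0.30). BCL2A1, a survival gene of myeloid cells, rose by 2.68 (SE 0.45). BCL2L11, the gene of the death inducer BIM, had 7.58, 10.9 and 6.39 CPM against 46.8, 20.3 and 12.4 CPM (log2 1.63, SE 0.41), and its call was lost without JQ1 library 1 (adjusted p = 0.0969).

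Homeobox genes known from leukaemic self-renewal rose. Of 12 tested HOX and MEIS genes 6 rose and 0 fell (median 0.90). HOXA9, the homeobox factor of leukaemic stem cells, had 126, 131 and 106 CPM with vehicle and 358, 358 and 258 CPM with JQ1 (log2 1.42, SE 0.26, adjusted p = 0.000156). Its DNA-binding partner MEIS1 rose from 21.9, 30.4 and 20.4 to 89.0, 101 and 88.2 CPM (log2 1.89, SE 0.21). HOXA3 rose by 2.98 (SE 0.28) and HOXA7 by 1.73 (SE 0.24). Of 21 myeloid transcription factor genes 11 rose and 0 fell (median 0.70). The immediate early factor EGR1, which favours the monocyte fate, rose from 16.0, 13.0 and 26.8 to 163, 121 and 400 CPM (log2 3.66, SE 0.58). LMO2, a bridging factor of blood progenitors, rose by 1.78 (SE 0.27), BACH1 by 1.65 (SE 0.33), RUNX2 by 1.53 (SE 0.28) and GFI1, a repressor needed for neutrophil development, by 1.11 (SE 0.20). MYB was 81.7, 138 and 160 CPM against 73.1, 82.0 and 97.0 CPM, which overlap, and did not pass the test (log2 −0.59, SE 0.27, adjusted p = 0.0962).

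Of 11 tested granule and progenitor genes 6 fell and 0 rose (median −2.03). MS4A3, a surface protein of granulocyte and monocyte progenitors, fell from 241, 245 and 171 to 6.85, 9.70 and 17.6 CPM (log2 −4.35, SE 0.33, adjusted p = 6.57e-10). AZU1, an antibacterial granule protein, fell from 1360, 1761 and 608 to 226, 211 and 215 CPM (log2 −2.52, SE 0.32). CST7, an inhibitor of granule proteases, had 78 tags over the vehicle libraries and 0 over the JQ1 libraries, at least 17.6-fold lower. LYZ, lysozyme, was a fall that rested on 1 library. It had 64.0, 72.7 and 615 CPM with vehicle and 50.2, 33.5 and 104 CPM with JQ1, and its change of −2.03 (SE 0.56) became −0.23 (adjusted p = 0.645) without vehicle library 3. The median of the list has the same rounded value as the change of LYZ, so it may rest on vehicle library 3 too.

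In the monocyte and macrophage list of 16 tested genes, 8 rose and 1 fell (median 1.005). S100A9 and S100A8, the paired calcium-binding proteins of inflammatory myeloid cells, rose by 2.95 (SE 0.55) and 2.85 (SE 0.50). S100A8 had 198, 135 and 311 CPM with vehicle and 1511, 1349 and 1750 CPM with JQ1, so that the groups were well apart. ITGAX, the CD11c integrin chain of dendritic cells and macrophages, rose from 6.74, 8.68 and 5.11 to 87.9, 111 and 93.5 CPM (log2 3.73, SE 0.28), and the scavenger receptor gene CD68 by 1.43 (SE 0.35). The member that fell was the protease gene CTSS (log2 −1.25), and its call was lost without vehicle library 1 or JQ1 library 3. In the adhesion and integrin list 10 of 25 rose and 2 fell (median 0.60). ITGB2, the common beta chain of leukocyte integrins, rose from 115, 119 and 158 to 951, 933 and 870 CPM (log2 2.81, SE 0.30), the tetraspanin gene CD82 by 4.40 (SE 0.36) and PECAM1 by 2.29 (SE 0.34). ITGB3, the beta chain of the platelet fibrinogen receptor, had 0 tags over the vehicle libraries and 55 over the JQ1 libraries, at least 27.1-fold higher, beside the lower megakaryocyte markers given above. SELPLG, the selectin ligand, fell (log2 −1.18, SE 0.30).

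Among growth factor and cytokine receptors 12 of 18 rose and 1 fell (median 0.83). FLT3, the receptor kinase often mutated in this leukaemia, rose from 103, 105 and 75.4 to 305, 277 and 273 CPM (log2 1.58, SE 0.23). IL10RA rose by 4.67 (SE 0.56), TGFBR2 by 2.19 (SE 0.30) and IL6R by 1.28 (SE 0.24), while CSF3R, the G-CSF receptor of granulocytes, fell from 53.1, 64.0 and 44.7 to 19.4, 22.04 and 22.9 CPM (log2 −1.36, SE 0.38). Of 39 lysosome and autophagy genes 23 rose and 1 fell (median 0.90). GABARAPL1, which coats autophagosomes, rose from 4.21, 6.51 and 6.39 to 41.1, 44.1 and 33.5 CPM (log2 2.78, SE 0.29). The protease gene CTSB rose by 2.67 (SE 0.32), PSAP, the precursor of the saposins, by 2.41 (SE 0.26), GRN by 1.99 (SE 0.26) and the proton pump subunit gene ATP6V0A1 by 1.76 (SE 0.27). Of 16 MHC class I genes 1 rose and 4 fell (median 0.10), and 17.4% of all genes fell. Among those that fell were the immunoproteasome genes PSMB8 (log2 −1.90, SE 0.31) and PSMB10 (log2 −1.65, SE 0.22) and the peptide transporter TAP2 (log2 −1.25, SE 0.32). The number that fell was 3 to 5 when 1 library was left out. Of 3 tested MHC class II genes 2 fell (median −1.24). That count was 1 without vehicle library 1 or 2 or JQ1 library 2 or 3 and 0 with DESeq2, and with a mean of at least 10 CPM it was 0 with a median of 0.20. HLA-DRA was at 64.0, 48.8 and 6.39 CPM against 6.85, 10.6 and 1.76 CPM, groups that overlap (log2 −2.52, SE 0.60, adjusted p = 0.0027, 0.109 with DESeq2).

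Of 37 chromatin modifier genes 10 rose and 4 fell (median 0.33). The acetyltransferase paralogs went opposite ways. KAT2B rose from 1.69, 1.63 and 1.28 to 11.4, 14.1 and 19.4 CPM (log2 3.11, SE 0.52). KAT2A fell from 18.5, 14.1 and 20.4 to 4.57, 0.881 and 3.53 CPM (log2 −2.59, SE 0.53). The demethylase genes KDM6A and KDM5B rose by 2.23 (SE 0.47) and 1.33 (SE 0.23) and the Polycomb gene BMI1 by 1.44 (SE 0.26). Among long non-coding RNA hosts and nuclear RNAs 11 of 29 fell and 3 rose (median −0.60). MALAT1, a nuclear RNA of splicing speckles, took 0.144%, 0.205% and 0.102% of all gene tags with vehicle and 1.41%, 2.02% and 1.93% with JQ1 (log2 3.40, SE 0.50, adjusted p = 1.11e-05). NEAT1, its neighbour and the scaffold of paraspeckles, rose by 4.22 (SE 0.60), from 103, 100.3 and 57.5 to 1032, 1181 and 2694 CPM. The small nucleolar RNA host genes SNHG8 and SNHG3 fell by 1.92 (SE 0.30) and 1.61 (SE 0.25) and DANCR by 1.78 (SE 0.22). CCDC26, a long non-coding RNA on the chromosome arm of MYC, had 124 tags over the vehicle libraries and 3 over the JQ1 libraries, a ratio of 27.9 (95% counting interval 9.34 to 137).

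Beside the list members, single genes outside the lists also changed by large factors. SRD5A1, a steroid 5-alpha reductase (GRCh38 chromosome 5, 6633343 to 6674386), had 4.21, 6.51 and 1.28 CPM with vehicle and 276, 276 and 478 CPM with JQ1 (log2 6.18, SE 0.40, adjusted p = 7.21e-11). F3, tissue factor, had 2 tags over the vehicle libraries and 66 over the JQ1 libraries, a ratio of 48.8 (95% counting interval 13.0 to 412). BAIAP2, RASD1, LFNG and SLC43A2 rose by 4.75 (SE 0.58), 4.75 (SE 0.81), 4.54 (SE 0.43) and 4.34 (SE 0.40). At the other end, SLC38A5, an amino acid carrier, and RAC3, a small GTPase, had 87 and 84 tags over the vehicle libraries and 0 over the JQ1 libraries, at least 19.6-fold and 18.9-fold lower. MS4A6A went from 163 tags to 1, a ratio of 110.2 (95% counting interval 19.5 to 4378). CEACAM6, an adhesion molecule of granulocytes, fell by 4.37 (SE 0.42) and PLPPR3 by 4.23 (SE 0.60). TNFSF13B, the cytokine BAFF, fell from 38.8, 39.1 and 43.4 to 2.28, 1.76 and 5.29 CPM (log2 −3.81, SE 0.43), the opposite direction to TNF and LTB of the same family.

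The promoter table resolves the starts within a gene. Of 12867 promoters tested 4522 (35.1%) changed, 2199 up (17.1%) and 2323 down (18.1%). By width, of 273 promoters of 10 bases or less 70 rose and 56 fell, of 7128 of 11 to 50 bases 1358 rose and 1243 fell, and of 5466 over 50 bases 771 rose and 1024 fell. The share that rose was thus 25.6%, 19.1% and 14.1%, a difference that was not tested. A promoter of SRD5A1 that was silent with vehicle gave the largest rise, with 0 tags over the vehicle libraries and 305 over the JQ1 libraries (96.3, 80.1 and 233 CPM), at least 147-fold higher. It lies at hg19 chr5:6633657-6633672 on the plus strand. Promoters of ITGB3, CLIC3 and TP53I3 also went from 0 tags to 55, 52 and 42. Among promoters that went to 0 tags were those of CST7, LRRC34, RAC3 and CPNE7, and 1 of RPL7, from 70, 62, 56, 43 and 56 tags.

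Promoters were assigned to a gene where their counts added up to the gene's count in all 18 libraries, and 1925 genes had at least 2 tested promoters. For 208 of them (10.8%) the shares of the promoters shifted with JQ1 (edgeR diffSpliceDGE, Simes gene-level adjusted p under 0.05), and 129 of the 208 were not called as genes. Tested promoters were called in 1 direction in 1051 genes, in both directions in 37 and not at all in 837. In 16 of the 37 the called promoters spanned over 500 bases. In others they were close neighbours, with first bases 18 bases apart in LY6E. ALDOA, the aldolase of muscle and most cells, had the smallest p for a shift (adjusted p = 1.51e-15) while its gene total did not pass the test, at 830, 713 and 978 CPM against 723, 515 and 527 CPM (log2 −0.51, adjusted p = 0.149). On hg19 chromosome 16, plus strand, its 5 upstream promoters lie between 30075463 and 30075798. The first of them went from 139, 111 and 115 to 12.6, 6.23 and 8.89 CPM (log2 −3.73, SE 0.33) and the second from 99.2, 125 and 131 to 6.88, 5.34 and 5.33 CPM (log2 −4.30, SE 0.34). The other 3 fell by 3.46 to 4.98. The sixth promoter, at 30077074 to 30077091, rose from 163, 177 and 285 to 580, 355 and 381 CPM (log2 1.08, SE 0.29), and the seventh, at 30077100 to 30077149, fell by 1.48 (SE 0.24).

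In SMARCD2, a subunit of the SWI/SNF remodeller needed for granulocytes, the promoter at hg19 chr17:61920280-61920343, upstream on the minus strand, rose from 8.70, 7.86 and 5.22 to 21.8, 33.8 and 42.7 CPM (log2 2.07, SE 0.32). The downstream one at chr17:61920023-61920110 fell from 65.3, 68.5 and 43.1 to 2.29, 8.89 and 5.33 CPM (log2 −3.34, SE 0.39). The gene as a whole fell by 0.95 (SE 0.25). In COX5B, a subunit of cytochrome oxidase, the main promoter did not pass the test, at 1380, 1189 and 1188 against 1247, 1080 and 1076 CPM, while a minor one a few bases downstream rose from 3.48, 3.37 and 6.53 to 36.7, 34.7 and 44.5 CPM (log2 3.17, SE 0.39). Minor starts of the ribosomal protein genes RPL29, RPS14 and RPS16 went the other way, falling by 3.26 to 3.40 and 2.44 to 4.05 in the first 2 and by 2.72 in RPS16, while their main starts did not pass the test. In RPL36 3 of 4 starts fell, by 2.37 to 2.50. S100A6, a calcium-binding protein of the S100 family, rose at its main start by 3.61 (SE 0.33), while the neighbouring start did not pass the test (log2 0.53, SE 0.34).

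**Figure D3:**
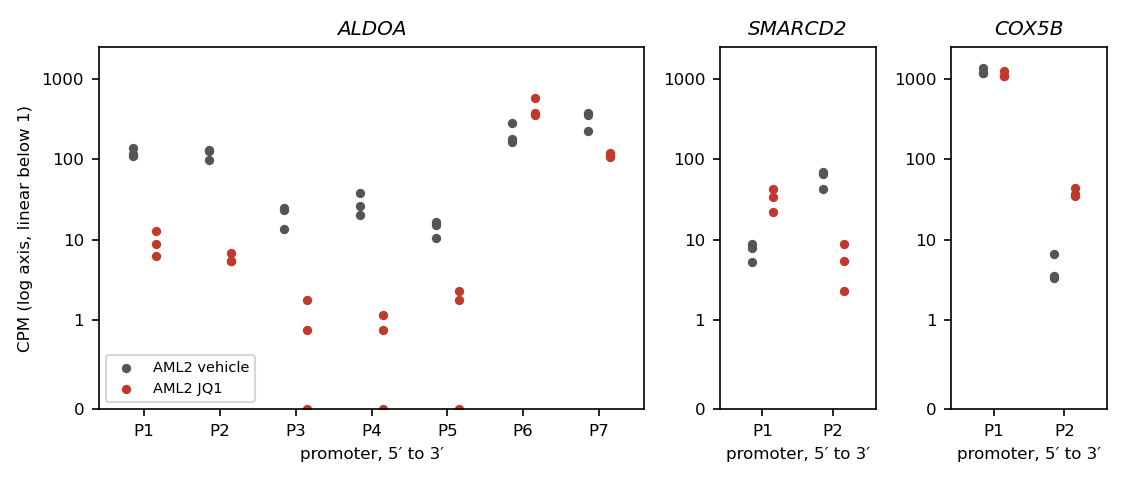
CPM (y axis, log scale, linear below 1) of each tested promoter of ALDOA, SMARCD2 and COX5B in the 3 vehicle (grey) and 3 JQ1 (red) libraries of AML2, with promoters ordered 5′ to 3′ along the gene. In ALDOA the first 5 promoters drop to at most 12.6 CPM with JQ1 while the sixth lies at 355 to 580 CPM, and in SMARCD2 the 2 promoters change places.

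Enhancers, which as background give short capped RNAs from both strands, gave more tags with JQ1. They made up 0.237%, 0.270% and 0.218% of promoter tags in the vehicle libraries (mean 0.242% ± 0.026, SD, n = 3) and 0.480%, 0.430% and 0.567% in the JQ1 libraries (0.492% ± 0.070, SD, n = 3). The groups did not overlap, a 2.03-fold difference with a 2-sided exact permutation p = 0.1, the smallest that 3 against 3 can give. For enhancers over 1000 bases from a start the shares were 0.134%, 0.152% and 0.115% against 0.263%, 0.224% and 0.286%, a 1.93-fold difference (exact p = 0.1). The starts were annotated ones for enhancers read as hg38 and tagged promoters for those named in hg19. None was set against both, so tags of other starts can remain. Of 849 enhancers tested with the promoter table's scaling 113 (13.3%) changed, 97 up (11.4%) and 16 down (1.88%), with a median of 0.72. With scaling factors of the enhancers' own table, which take out a change of all enhancers, 67 changed, 39 up and 28 down, with a median of 0.17, so that the split depends on which total is held fixed. With the lower limit of 1 tag in 3 libraries 3863 were tested and 66 changed, 58 up and 8 down, with a median of 0.10. Both limits counted all 18 libraries, so enhancers tagged only under a drug could pass them. The part of this in the medians and the splits was not tested. Leaving out vehicle library 1 or 2 left 73 or 60.

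**Figure D4:**
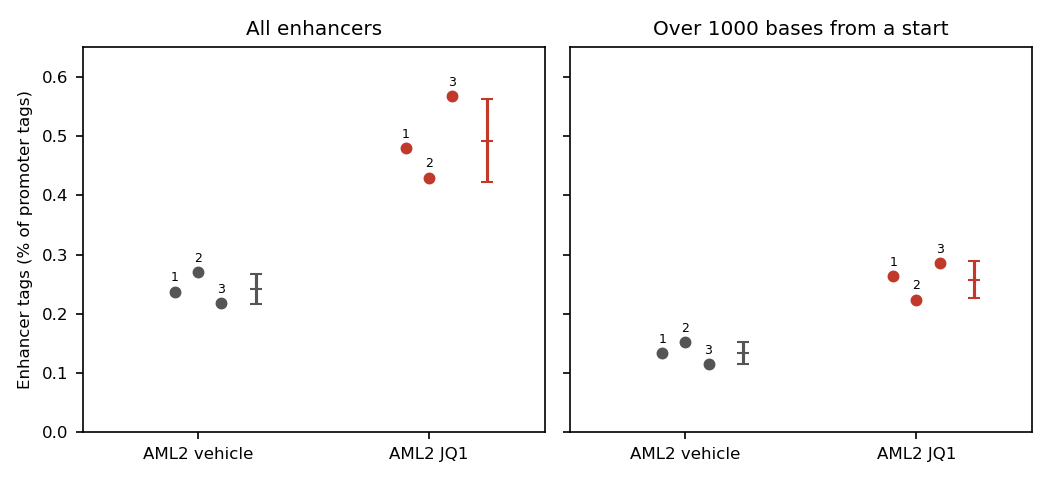
Enhancer tags as a percent of promoter tags (y axis) in each of the 3 vehicle and 3 JQ1 libraries of AML2, for all enhancers (left) and those over 1000 bases from a start (right). Points are libraries with their number and bars are mean ± SD; all JQ1 libraries lie above all vehicle libraries, at 0.430% to 0.567% against 0.218% to 0.270% in the left panel.

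The largest rise of an enhancer was at hg38 chr11:33892999-33893225, 710 bases from a start of LMO2. It had 3 tags over the vehicle libraries and 228 over the JQ1 libraries (83.7, 46.3 and 183 CPM), a ratio of 109.8 (95% counting interval 37.1 to 536), while LMO2 itself rose by 1.78. A promoter with no matched gene, hg19 chr11:33914678-33914683 on the minus strand, rose by 6.66 with nearly the same levels (79.1, 43.6 and 176 CPM), and whether it is the same start in the other build was not tested. The region at chr15:31266255-31266769, 60086 bases from the nearest tested gene, KLF13, went from 0 to 15 tags, at least 7.22-fold higher, and KLF13 rose. Those at chr1:32962873-32963419, 1266 bases from RNF19B, and chr1:161068117-161068936, 730 bases from ARHGAP30, went from 0 to 17 and 14 tags. The enhancer chr11:57792276-57792500 by CTNND1 went from 0 to 10 tags, and lost its call without vehicle library 2 (adjusted p = 0.0534). The clearest fall was at chr6:159121353-159121804, from 24 tags to 0, at least 5.54-fold lower. That region overlaps an annotated start (0 bases away), and the nearest tested gene, TAGAP at 76201 bases, rose by 1.56 (adjusted p = 0.0234). At hg19 chr1:236105368-236105579, 75052 bases from LYST, 28 tags fell to 1, a ratio of 19.4 (95% counting interval 3.205 to 793). The other 3 of the 5 largest falls had 10 to 13 tags over the vehicle libraries and 0 over the JQ1 libraries, and each lost its call under at least 1 alternative.

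The nearest tested genes were then read beside the enhancers. Of the 97 enhancers that rose 86 had a tested gene within 100000 bases, and that gene rose in 48 (55.8%) and fell in 3. Of the 16 that fell 14 had one, which rose in 1 and fell in 6. Over all 730 tested enhancers with a gene in that range, the gene rose in 235 (32.2%) and fell in 69 (9.45%). These shares are descriptions and were not tested. Tags of an enhancer close to a start may belong to that start. By the measure above, 49 of the rising and 11 of the falling enhancers were over 1000 bases from one.

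The same drug in AML3 shows where the AML2 response differed. With JQ1 2685 genes rose and 2414 fell in AML3. In both lines 1077 rose and 1259 fell, while 84 rose in AML2 and fell in AML3, and 22 did the reverse. The difference of the effects itself passed the test for 696 genes (6.94%), with the AML3 change the higher in 303 and the lower in 393. AML3 JQ1 library 3 stood apart, with 378794 gene tags and 8.08% from ribosomal protein genes, beside 20.1% and 21.4% in libraries 1 and 2. AML3 OTX015 library 3, in the same fit, had 7.82%. Without AML3 JQ1 library 3 the count was 640 (246 higher, 394 lower), and with libraries 1 and 2 alone 1263 (471 higher, 792 lower). ITGAX rose in AML2 and went from 4.69, 4.33 and 7.09 CPM to 0 tags in AML3 (difference −9.05, SE 0.97, adjusted p = 3.78e-06). GPR84, a receptor for medium-chain fatty acids on myeloid cells, rose in AML2 from 23.6, 16.8 and 37.1 to 175, 244 and 164 CPM and fell in AML3 from 29.9, 36.3 and 21.3 to 1.78, 0 and 0 CPM (difference −8.08, SE 0.64). CYTIP and HK3 also rose in AML2 and fell in AML3. With 0 tags in every AML3 JQ1 library for ITGAX, CYTIP and HK3, the sizes of these differences depend on the count that the fit adds. The granule protease gene CTSG was 1652, 1699 and 907 against 1157, 1116 and 1212 CPM in AML2, which overlap (log2 −0.29, adjusted p = 0.593). In AML3 it fell from 2554, 2718 and 4190 to 34.7, 26.4 and 5.41 CPM (difference −6.76, SE 0.62). FABP5, a fatty acid carrier, was the opposite case, falling in AML2 from 414, 367 and 322 to 34.2, 41.4 and 75.9 CPM and rising in AML3 by 1.14 (difference 4.05, SE 0.55).

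MYC fell further in AML2, from a higher start. AML3 went from 182, 209 and 183 to 65.8, 65.5 and 77.6 CPM (log2 −1.47, SE 0.24), and the difference passed the test (1.27, SE 0.33, adjusted p = 0.0166). NFKBIA, KLF2 and SRD5A1 rose in both lines and more in AML2, with differences of −2.95 (SE 0.42), −4.10 (SE 0.63) and −3.91 (SE 0.57). For HEXIM1 (1.42, SE 0.71, adjusted p = 0.262), NPM3 (0.56, SE 0.43, adjusted p = 0.494), HOXA9 (0.87, SE 0.37, adjusted p = 0.169) and BCL2 (−0.96, SE 0.43, adjusted p = 0.199) the difference did not pass, which does not show that the lines respond alike.

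**Figure D5:**
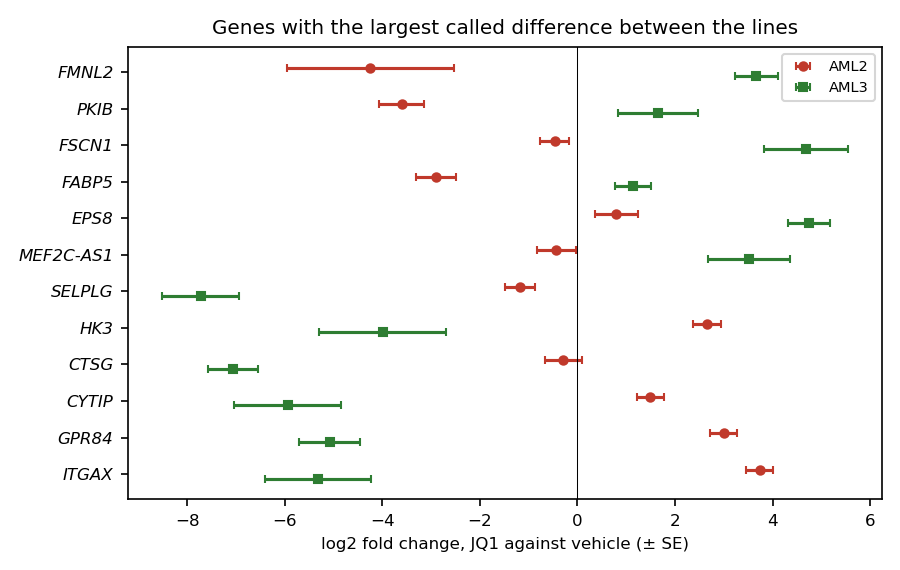
Log2 fold change of JQ1 against vehicle (x axis, bars ± SE) in AML2 (red circles) and AML3 (green squares) for the 12 genes with the largest called differences between the lines. ITGAX, GPR84, CYTIP and HK3 lie right of 0 in AML2 and left of 0 in AML3; FABP5 lies left of 0 in AML2 and right of 0 in AML3.

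OTX015 (birabresib) shares the thienotriazolodiazepine core of JQ1, but carries a hydroxyphenyl amide where JQ1 has a tert-butyl ester. Doses and times of neither are given, so the values stand side by side and are no comparison at matched dose. Set directly against JQ1 in AML2, 0 of 10031 genes (0.0%) passed the edgeR test, with 331 at an unadjusted p under 0.05 and 1 (HIST1H3C) called by DESeq2. With libraries 1 and 2 alone 4 passed: HEXIM1 (0.95, adjusted p = 0.0227), HIST1H3C (−1.42), INTS6 (0.97) and PCBP1-AS1 (1.29), positive values being higher with OTX015. Of the 3469 genes called for JQ1, 2172 (62.6%) had a 95% interval for the difference that lies within 2-fold either way. Over all 10031 genes tested, called or not, 5572 had such an interval. Genes without one could differ by more at this depth. MYC had 50.2, 41.6 and 59.0 CPM with OTX015 beside 52.5, 62.6 and 84.7 CPM with JQ1, a difference of −0.41 (95% interval −0.97 to 0.15). NPM3 was at 15.2, 18.4 and 8.42 CPM beside 25.1, 24.7 and 30.0 CPM, which do not overlap, with a difference of −0.81 (95% interval −1.62 to 0.0016). HEXIM1 was at 205.5, 230.2 and 526 CPM beside 110, 114 and 228 CPM (difference 1.10, 95% interval 0.17 to 2.02). For NFKBIA the difference was 0.23 (95% interval −0.30 to 0.76), for KLF2 0.06 (−0.55 to 0.67), for HOXA9 −0.02 (−0.58 to 0.53) and for BCL2 0.05 (−0.64 to 0.74).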

How the data were processed

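CAGE tags of 18 libraries were used as the whole-number counts that the authors deposited per gene symbol (14079), promoter (42133) and enhancer (3863). The submitters' processing notes name STAR and hg38, while 41307 promoter names carry hg19 coordinates. Their versions and the clustering of tags were not given in the sources used here. Promoters were matched to genes where their counts summed to the gene's in all libraries, which placed 10395 of 11096 genes with at least 50 tags (93.7%). hg19 coordinates are given as named and were not set against the RefSeq sequences (GRCh38.p14). Gene positions are from GENCODE 29 (GRCh38).

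The test was that of edgeR 4.0.16 under R 4.3.3 (filterByExpr, TMM, quasi-likelihood F test, all 18 libraries in 1 fit with 12 residual degrees of freedom, Benjamini-Hochberg adjusted p under 0.05). It was also run on simulated data in which far fewer genes changed than were called here. That run does not check the calls or the scaling at the share called here. Enhancers needed at least 3 tags in at least 3 of all 18 libraries, and used the promoter table's library sizes and scaling. Fold bounds against 0 tags use a floor of 3 tags over the group, and counting intervals are exact 95% Poisson intervals, which cover counting error only. RefSeq synonyms matched list members to symbols, and 8054 of 10031 tested genes had a RefSeq promoter, taken at the most upstream start.

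The comparison, the gene lists and the naming rule were chosen with earlier results of these data known. The rule names the 15 largest called rises and falls with a mean of at least 10 CPM and no overlap, per list the 5 members with the smallest adjusted p and the largest called change against the list's direction, genes always named such as MYC, BRD2 and BRD3, the 6 largest called promoter changes (mean of at least 5 CPM) and line differences each way, the 5 largest enhancer changes each way, the 8 smallest promoter-shift p-values, and called members of lists with 5 or fewer. Not every gene it names is printed, and some always-named genes are not reported here. The printed promoters and the motif comparisons were picked after their values were seen.

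The labels do not say that equal replicate numbers pair the samples, and the main fit did not pair them. The correlations of same-numbered deviations were 0.114, 0.056 and 0.164, and those of the other pairs −0.160 to 0.0996. With the replicate block 3867 genes were called for JQ1 and 1019 for the line difference, beside 3469 and 696 without it. A source of spread shared by replicate number was not tested. Replicates correlated at 0.935 to 0.975 on log2 CPM and differed by more than sampling noise, so none was a duplicate. The alternatives were RLE scaling, DESeq2 1.42.0, other filters, the replicate block, libraries 1 and 2 alone, only the compared groups, and leaving out each library.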

Additional observations from a re-analysis of the deposited data

Results flagged for a closer look

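The effect of JQ1 differed between the lines, by the interaction test of edgeR (Benjamini-Hochberg adjusted p under 0.05), for 51 of the 201 named genes. Each value below is the AML3 log2 change minus the AML2 log2 change, so that a negative value means a lower change in AML3. The difference was negative in 38 genes and positive in 13, and 10 genes were called in opposite directions in the lines. Over all 10031 genes tested the difference was called for 696 (6.94%), higher in AML3 for 303 and lower for 393. Several of the 51 genes were named for this difference, and many others for a large or clear change in AML2. The counts among named genes therefore do not stand for all genes.

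Adhesion molecules and a regulator of adhesion (CYTIP) were among the negative differences, with ITGAX (−9.05), CYTIP (−7.44), SELPLG (−6.54), CD82 (−6.12), ICAM1 (−4.76), PECAM1 (−3.09) and ITGB2 (−1.71). Receptors were GPR84 (−8.08), IL10RA (−3.73), FLT3 (−1.98) and IL6R (−1.97). Granule, S100 and lysosomal genes were CTSG (−6.76), S100A8 (−3.24), S100A9 (−3.14), S100A6 (−3.36), MS4A3 (−3.32), CD68 (−2.53), CTSB (−2.19), GRN (−2.05) and PSAP (−1.49). Regulators of transcription, growth and survival were KLF2 (−4.10), KLF13 (−1.70), BTG2 (−3.10), NFKBIA (−2.95), BCL2A1 (−2.93), TP53I3 (−2.83), BMI1 (−2.77), GFI1 (−1.91) and RUNX2 (−1.81). The metabolic, cell cycle and other genes were HK3 (−6.65), SLC43A2 (−4.92), SRD5A1 (−3.91), LFNG (−3.04), ACSL1 (−1.95), RRM2 (−1.87), CCND3 (−1.83), SCD (−1.77) and CCNA2 (−1.38).

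Positive differences were found for MYC (1.27), HOXA3 (1.65), HMGCS1 (2.34), SQLE (1.21) and EPRS (1.05), which encode a growth regulator, a homeobox factor, 2 sterol enzymes and a tRNA synthetase. Among non-coding RNAs were SNHG3 (1.18), DANCR (1.80) and MEF2C-AS1 (3.95). The rest were EPS8 (3.95), FABP5 (4.05), FSCN1 (5.15), PKIB (5.25) and FMNL2 (7.91). FMNL2 had 9 tags over the AML2 vehicle libraries and 0 over the AML2 JQ1 libraries, and its change in AML2 was not called (adjusted p = 0.0576). The AML3 JQ1 libraries had 0 tags of ITGAX, CYTIP, HK3 and SELPLG, so the sizes for these 5 genes depend on the count that the fit adds.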

How the results depend on the processing

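Leaving out 1 library at a time gave 2837 to 3132 genes called for JQ1 in AML2, 3670 to 4160 promoters, 60 to 86 enhancers, 121 to 176 genes with a promoter shift, 462 to 723 genes with a line difference and 0 genes for OTX015 against JQ1. The enhancer count moved most without vehicle library 1 (73) or 2 (60), the shift count without vehicle library 2 (131) or JQ1 library 2 (121), and the line difference without AML2 JQ1 library 2 (462). With the replicate block 3867 genes were called. With libraries 1 and 2 alone the line difference was called for 1263 genes, 471 higher and 792 lower in AML3, and OTX015 against JQ1 for 4 genes. DESeq2 called 1 gene for OTX015 against JQ1. Of the enhancers 67 were called with their own scaling, 66 with at least 1 tag in 3 libraries and 55 among those over 1000 bases from a start, an alternative chosen after seeing the data. The uncalled values of 2 genes changed sign. COX5B was 0.0035 with only the compared groups, and MAX was −0.04 without vehicle library 1 or JQ1 library 1, in a range of −0.0445 to 0.0984 over the left-out libraries. Of 2419 values of called named genes over 13 alternatives 2376 kept their call and direction, 43 lost the call and 0 reversed. Most of these genes were named for large changes or small adjusted p-values in these same libraries. Their kept calls therefore do not measure how stable the calls of all genes are. Of 403 list counts 381 stayed within 1.5 times, and the cause of the other 22 changes was not tested.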
